A study of Mus musculus with 24 samples.

Results

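Thrombomodulin (Thbd), sphingosine kinase 1 (Sphk1), the TWEAK receptor Fn14 (Tnfrsf12a), the scaffold protein gravin (Akap12), the kelch protein ectodermal-neural cortex 1 (Enc1) and the laminin β3 chain (Lamb3) were described across liver arrays of lean and obese mice after sham surgery or partial hepatectomy. They were picked as signalling and vascular genes with high values after resection in these same arrays. Every probe of the array that carries 1 of the 6 symbols was taken, which gave 9 of 45281 probes, and the 6 genes were among 19057 genes with a probe. Of the 9 probes, 7 were bright enough to enter the tests, and each gene was read by its brightest probe, so all 6 genes were among the 10765 tested.

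The mice were male C57BL/6J animals of 12 weeks, either lean controls or mice with diet-induced obesity. Each diet had a sham group, with a midline incision and handling of the liver, a group with 70% of the liver removed and a group with 80% removed. Liver was taken 6 h after surgery, and each of the 6 groups had 4 arrays. No allele or agent distinguished the groups; what the mice shared were the strain, the sex, the age and the isoflurane used at the end.

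The 6 genes lie at different levels of the response of a tissue to injury. Thrombomodulin sits on endothelial cells, binds thrombin and turns it from clotting towards activation of protein C. Sphk1 makes the lipid messenger sphingosine 1-phosphate, and Tnfrsf12a is a small receptor of the TNF receptor family that is low in resting tissue and is known to appear early in liver regeneration. Akap12 holds protein kinases A and C near the membrane, Enc1 is an actin-binding protein with a kelch domain, and Lamb3 is a chain of the main laminin of epithelial basement membranes.

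Arrays detected 15316 to 17463 probes, with a median intensity of 63.5 to 75.4, and in each group the 2 least alike arrays correlated at 0.977 to 0.992. Hepatocyte markers were detected on all arrays for 6 of 6 genes, and 11 of 12 endothelial markers were tested, while 0 of 6 mesothelial markers were among the genes tested. The arrays lay on 4 slides. The lean sham arrays and obese sham replicates 1 and 2 shared slide 1, obese sham replicates 3 and 4 and the lean 70% arrays shared slide 2, the obese 70% arrays and lean 80% replicates 1 and 2 shared slide 3, and lean 80% replicates 3 and 4 and the obese 80% arrays shared slide 4. Slide and group therefore cannot be told apart for lean 80% against lean sham, for both obese resections against obese sham, for lean 80% against lean 70%, and for the diets at 70%. The same holds for the diet difference in response at 70% and for that in the step from 70% to 80%. In bulk liver, fewer cells of a type and less RNA per cell cannot be told apart, and arrays of a group are separate samples by their labels, so that p-values measure the spread between these arrays.

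Intensities below are the deposited bead averages, in which background alone gives about the level of the median probe. Group levels are log2 values after background correction and quantile normalisation, given as mean ± SD over 4 arrays, and a level of 1 probe is not set against that of another. All 6 genes had higher values on all 4 arrays than on any sham array in lean mice after either resection, against 18.3% of all genes at 70% and 19.5% at 80%. In obese mice this held for 5 genes, against 22.2% and 23.5% of all genes, and Lamb3 was lower on all arrays, as were 23.9% and 27.9% of genes. The genes were picked from this contrast, so nothing is read from these counts and no test is given against sham. The 70% and 80% groups of a diet are set against the same sham arrays.

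Thbd (Entrez 21824, GRCm38.p6 chr2:148404471-148408188) had intensities of 109.6, 108.4, 97.6 and 108.5 in lean sham liver, 1033.5, 1343.1, 1055.7 and 941.1 after 70% and 1663.4, 2023.2, 2345.4 and 1872.2 after 80% hepatectomy. In obese mice the Thbd values were 134.3, 145.2, 157.2 and 137.1 after sham surgery, 1141.8, 896.7, 957.5 and 1393.0 after 70% and 1904.0, 1612.9, 2033.4 and 2478.3 after 80% hepatectomy. The 3 surgeries formed 3 separate ranges in each diet, each resection above the one before, and the diets overlapped at both resections. Log2 levels were 5.97 ± 0.18, 10.04 ± 0.21 and 11.03 ± 0.13 in lean mice and 6.44 ± 0.11, 10.01 ± 0.20 and 10.92 ± 0.23 in obese mice. The difference from sham was 16.8-fold at 70% and 33.2-fold at 80% in lean mice and 11.8-fold and 22.2-fold in obese mice (log2 SE 0.13).

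Sphk1 (Entrez 20698, chr11:116530836-116536675) gave 64.2, 64.2, 62.0 and 77.5 in lean sham liver, not detected on any of the 4 arrays, 360.7, 437.1, 383.0 and 346.0 after 70% and 564.0, 578.6, 402.0 and 370.5 after 80%. In obese mice its intensities were 74.3, 77.4, 79.7 and 78.8 after sham surgery, detected on 3 arrays, 328.2, 264.7, 383.6 and 695.8 after 70% and 1354.8, 547.7, 955.8 and 1245.0 after 80%. The lean ranges at 70% and 80% overlapped, whereas the normalised obese values did not. Log2 levels were 4.55 ± 0.087, 8.40 ± 0.17 and 8.92 ± 0.42 in lean mice and 4.88 ± 0.076, 8.39 ± 0.48 and 9.82 ± 0.39 in obese mice. Against a lean sham group below detection, Sphk1 was at least 11.6-fold higher at 70% and at least 16.7-fold higher at 80%, taking the dimmest detected probe of each array as the floor. In obese mice the fitted differences were 3.51 and 4.94 on the log2 scale (SE 0.21). Sphk1 rests on 1 of its 3 probes: the second was detected on 4 of 24 arrays at intensities of 62.3 to 87, the third on 1 at 58.2 to 83.

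Tnfrsf12a (Entrez 27279, chr17:23675445-23677449) had intensities of 130.9, 110.8, 138.3 and 134.0 in lean sham liver, 2175.7, 1930.6, 2096.7 and 1254.2 after 70% and 982.5, 980.5, 1071.1 and 974.4 after 80%. In obese mice it gave 147.9, 145.1, 176.3 and 136.4 after sham surgery, 1776.9, 1074.3, 1866.6 and 2656.1 after 70% and 3174.7, 1683.0, 2531.2 and 2920.9 after 80%. In lean mice the 4 arrays at 80% all lay below the 4 at 70%, and in obese mice the upper range belonged to 80% with some overlap. Its log2 levels were 6.42 ± 0.26, 10.79 ± 0.30 and 10.08 ± 0.14 in lean and 6.54 ± 0.20, 10.72 ± 0.38 and 11.28 ± 0.25 in obese mice. The difference from sham was 20.6-fold and 12.6-fold in lean mice and 18.1-fold and 26.7-fold in obese mice (log2 SE 0.18).

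Akap12 (Entrez 83397, chr10:4266329-4359471) gave 107.0, 92.7, 88.1 and 108.0 in lean sham liver, 319.6, 427.9, 354.3 and 423.7 after 70% and 994.2, 997.7, 734.8 and 672.9 after 80%. Obese mice had 94.5, 109.8, 111.0 and 96.4 after sham surgery, 342.4, 210.9, 348.4 and 710.6 after 70% and 1162.4, 708.6, 1084.3 and 1544.6 after 80%. The normalised ranges of the 3 surgeries did not overlap in either diet, and the widest spread lay in the obese 70% group, between replicates 2 and 4. Its log2 levels were 5.78 ± 0.14, 8.39 ± 0.32 and 9.80 ± 0.37 in lean and 5.67 ± 0.20, 8.27 ± 0.64 and 9.99 ± 0.31 in obese mice, so the diets overlapped at every surgery. The difference from sham was 6.14-fold and 16.3-fold in lean mice and 6.08-fold and 20.0-fold in obese mice (log2 SE 0.23). Its other probe was detected on 0 of 24 arrays, at intensities of 55 to 70.2, so Akap12 rests on 1 of 2 probes.

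Enc1 (Entrez 13803, chr13:97241105-97253040) had intensities of 67.7, 67.8, 72.4 and 86.7 in lean sham liver, detected on 2 arrays, 611.1, 866.3, 914.5 and 1088.3 after 70% and 905.3, 1185.0, 1026.8 and 892.8 after 80%. In obese mice it gave 94.7, 101.0, 131.2 and 104.2 after sham surgery, 576.1, 447.9, 582.1 and 587.6 after 70% and 752.2, 493.6, 556.4 and 618.8 after 80%. Both resections lay far above sham, the 70% and 80% ranges overlapped in each diet, and obese sham lay above lean sham. Its log2 levels were 4.82 ± 0.19, 9.66 ± 0.42 and 10.07 ± 0.12 in lean and 5.76 ± 0.26, 8.94 ± 0.15 and 9.05 ± 0.092 in obese mice. The obese differences from sham were 9.05-fold and 9.72-fold (log2 SE 0.16). With 2 of 4 lean sham arrays detecting Enc1, the lean fold has no exact value, and the fitted log2 differences were 4.84 and 5.25.

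Lamb3 (Entrez 16780, chr1:193294353-193343878) gave 92.5, 80.9, 82.3 and 95.7 in lean sham liver, 179.6, 247.2, 235.8 and 266.5 after 70% and 428.5, 472.2, 342.4 and 200.7 after 80%. In obese mice the order was the other way, with 169.1, 201.2, 227.4 and 179.3 after sham surgery, 147.5, 110.1, 150.9 and 136.5 after 70% and 142.1, 115.4, 125.9 and 148.8 after 80%. Lamb3 was thus high after resection in lean mice and low after resection in obese mice, so the description of the 6 genes as induced by resection does not hold for it in obese liver. The lean 80% values split by slide, with 9.0 and 8.81 on the log2 scale on slide 3 and 8.34 and 7.46 on slide 4. Log2 levels were 5.42 ± 0.12, 7.52 ± 0.40 and 8.40 ± 0.69 in lean and 7.03 ± 0.18, 6.41 ± 0.30 and 6.27 ± 0.097 in obese mice. The difference from sham was 4.27-fold and 7.87-fold higher in lean mice and 1.54-fold and 1.70-fold lower in obese mice (log2 SE 0.23).

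**Figure D1:**
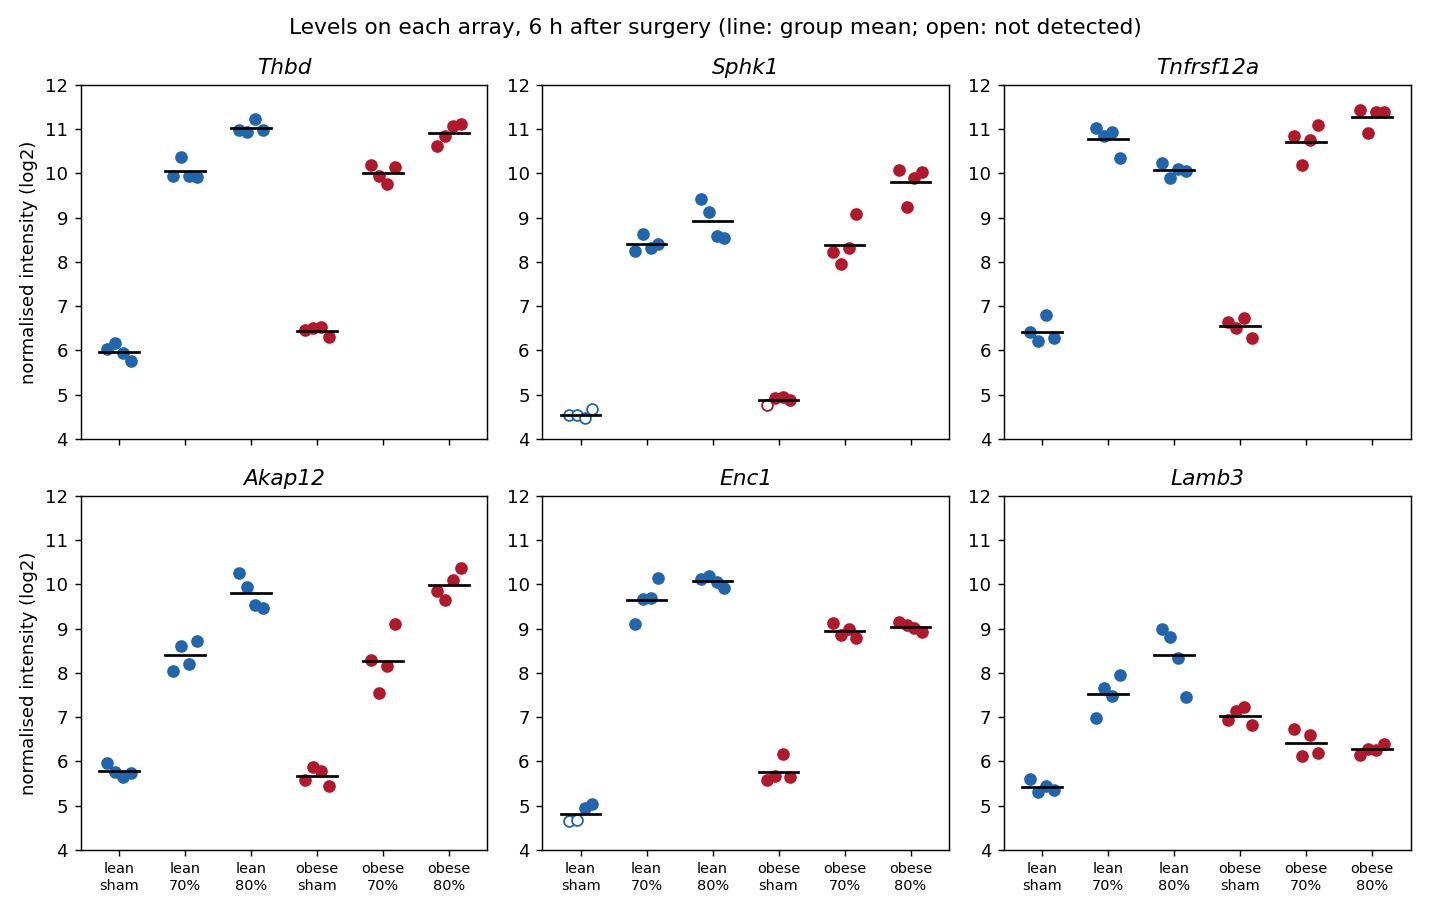
Normalised log2 intensity of each gene (vertical axis) on each of the 24 arrays, by diet and surgery (horizontal axis). Points are arrays, lines are group means of 4, and open points are arrays on which the gene was not detected; Lamb3 is high in lean and low in obese mice after resection, and Tnfrsf12a is lower at 80% than at 70% in lean mice.

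In the order of group levels, neighbours often overlapped. For Thbd the obese and lean 70% groups overlapped, as did the obese and lean 80% groups, and the other steps were separated. For Sphk1 the obese 70%, lean 70% and lean 80% groups formed an overlapping run, and the lean 80% group also overlapped the obese 80% group above it. For Tnfrsf12a both sham groups overlapped, and from the lean 80% group upward each group overlapped the next. For Akap12 the diets overlapped within each surgery and the surgeries were apart. For Enc1 the sham groups lay apart at the bottom, the obese 70% and 80% groups overlapped each other, and the lean 70% group overlapped both of its neighbours, obese 80% below and lean 80% above. For Lamb3 the obese 80% and 70% groups overlapped, as did obese sham with lean 70% and lean 70% with lean 80%, while lean sham lay below them all.

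The intensities without background correction gave smaller differences from sham. For the 5 genes other than Lamb3 they were smaller by 0.61 to 1.38 log2 units in lean mice at 70% and by 0.59 to 1.43 at 80%, and by 0.57 to 1.20 and 0.58 to 1.33 in obese mice. On that scale the 5 genes were still at least 1.85 log2 units above sham in each comparison, and the size of these folds depends on how background is handled.

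Start-site windows of 250 bases before to 50 bases after the start, from RefSeq on GRCm38.p6, were given for 3 of the 6 genes, in 8 windows. They are shown because they are the sequences next to genes that were high together after resection in lean mice, with matches on either strand in capitals. The letters TGANTCA were taken for AP-1. The letters TGACGTCA, searched in the same way on both strands, stood for the cyclic AMP response element. The motif of the TEAD factors was GGAATG and that of the GC box, bound by SP factors, was GGGCGG. The E-box was searched as CACGTG and, as the mark of a fixed transcription start, TATAAA was used. The CArG box and the NF-kB motif were searched with degenerate letters and are named only. The Tnfrsf12a window, chr17:23677400-23677699 on the minus strand, holds 5 GC boxes. Among the Sphk1 windows, chr11:116531587-116531886 on the plus strand holds the AP-1 letters 50 bases before the start. The Lamb3 window, chr1:193301744-193302043 on the plus strand, holds 1 NF-kB match 24 bases after the start.
Tnfrsf12a: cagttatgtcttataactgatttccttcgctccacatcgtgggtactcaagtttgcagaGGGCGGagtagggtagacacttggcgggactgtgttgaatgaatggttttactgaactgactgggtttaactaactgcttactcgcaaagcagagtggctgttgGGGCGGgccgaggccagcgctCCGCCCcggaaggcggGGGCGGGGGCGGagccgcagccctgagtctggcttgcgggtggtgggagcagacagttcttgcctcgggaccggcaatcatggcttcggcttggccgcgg
Sphk1: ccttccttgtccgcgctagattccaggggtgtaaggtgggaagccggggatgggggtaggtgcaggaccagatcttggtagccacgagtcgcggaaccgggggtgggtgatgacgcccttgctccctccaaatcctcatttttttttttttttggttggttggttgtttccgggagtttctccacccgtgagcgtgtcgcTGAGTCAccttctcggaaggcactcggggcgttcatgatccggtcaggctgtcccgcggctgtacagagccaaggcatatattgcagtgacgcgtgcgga
Lamb3: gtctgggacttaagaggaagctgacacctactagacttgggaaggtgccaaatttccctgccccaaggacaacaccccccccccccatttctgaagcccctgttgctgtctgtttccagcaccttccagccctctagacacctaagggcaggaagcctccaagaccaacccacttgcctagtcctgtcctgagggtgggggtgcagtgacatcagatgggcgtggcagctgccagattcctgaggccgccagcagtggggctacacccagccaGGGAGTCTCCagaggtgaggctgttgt
Of all 32851 windows, 35.7% held a GC box, 7.81% an AP-1 match and 4.51% an NF-kB match. The last 2 GC boxes of Tnfrsf12a lie end to end, and no match overlapped another in these 3 windows. The other 4 Sphk1 windows held a TEAD and a TATA match, the same AP-1 letters with an NF-kB match, and the E-box in 2 overlapping windows, against 14.7%, 13.6% and 7.15% of all windows for TEAD, TATA and the E-box. The second Lamb3 window held the same NF-kB letters and a TEAD match. The windows held no cyclic AMP element or CArG box, which 1.79% and 1.63% of windows held. A match describes the letters and is not a measured site.

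The next question was whether removing 80% instead of 70% of the liver changed these levels further. Akap12 and Thbd were higher at 80% in both diets, Sphk1 in obese mice, and Tnfrsf12a went down in lean mice. In limma with adjustment over all genes, 4 of the 6 genes passed in lean mice, 3 higher and 1 lower, where 16.6% of all genes passed, 7.02% higher and 9.6% lower. In obese mice 3 passed, all higher, where 7.86% of all genes passed, 4.31% higher and 3.55% lower. The genes were picked for high values after resection, so these p-values are not wholly independent of that choice.

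Akap12 rose by 1.41 log2 units from 70% to 80% in lean mice (SE 0.23, limma adjusted p = 0.000294) and by 1.72 in obese mice (limma adjusted p = 0.000227), which is 2.65-fold and 3.29-fold. Thbd rose by 0.98 in lean mice (SE 0.13, limma adjusted p = 1.64e-05) and by 0.91 in obese mice (limma adjusted p = 0.000266), which is 1.97-fold and 1.88-fold. These 2 genes stepped up in every pair of ranges, with no overlap in either diet, as did 5.26% of all genes in lean and 6.74% in obese mice. Sphk1 rose by 1.43 in obese mice (SE 0.21, limma adjusted p = 0.000266) and differed by 0.52 in lean mice (95% interval 0.088 to 0.96, limma adjusted p = 0.0843). The lean Sphk1 step passed without lean 80% replicate 4 (adjusted p = 0.0415) and with array weights (adjusted p = 0.0314).

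Tnfrsf12a fell by 0.71 in lean mice from 70% to 80% (SE 0.18, limma adjusted p = 0.0085), 1.63-fold lower. In obese mice it differed by 0.56 upward (limma adjusted p = 0.0502), and it passed without obese 70% replicate 4 (adjusted p = 0.0184) or without obese 80% replicate 2 (adjusted p = 0.0213). It also passed without background correction (adjusted p = 0.0307), with an offset of 50 (0.0344), on the authors' log2 values (0.0308), with the stricter detection filter (0.0464), with array weights (0.00613) and with the replicate block (0.0284), and not with slide as a term (0.35). Lamb3 rose by 0.88 in lean mice (SE 0.23, limma adjusted p = 0.012) with overlapping ranges, and was lost without lean 70% replicate 1, lean 80% replicate 1 or lean 80% replicate 2 (adjusted p = 0.0561, 0.0518 and 0.0516). The Lamb3 call was also lost with the lean 70% and 80% groups fitted alone (limma adjusted p = 0.137). Its obese difference was -0.14 (limma adjusted p = 0.767). Enc1 differed by 0.41 in lean mice (SE 0.16, limma adjusted p = 0.0752) and by 0.10 in obese mice (limma adjusted p = 0.751), and the lean step passed without lean 70% replicate 4 (adjusted p = 0.00758), without background correction (0.0403), with an offset of 50 (0.0446), on the authors' log2 values (0.0401) and with array weights (0.0253).

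With slide as a term in the model, the obese step could be compared through the lean 80% arrays that lie on both slides. It was then 2.13 for Sphk1 (limma adjusted p = 0.0016), 2.31 for Akap12 (0.00308) and 0.76 for Thbd (0.0498). It was 0.55 for Tnfrsf12a (0.35) and 0.28 for Enc1 (0.612), and for Lamb3 it turned to 0.87 (0.123). In the lean 80% group Sphk1 and Akap12 were higher on slide 3 than on slide 4, at 9.42 and 9.13 against 8.59 and 8.55 for Sphk1 and at 10.26 and 9.93 against 9.54 and 9.48 for Akap12. Marker lists moved between the resections too: 5 of 5 tested macrophage markers were lower at 80% than at 70% in lean mice, where their summed level ran from 1370 to 1840 against 1470 to 4200, and 3 of 5 tested neutrophil markers were higher at 80% in obese mice. Their part in the steps of these genes was not tested.

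**Figure D2:**
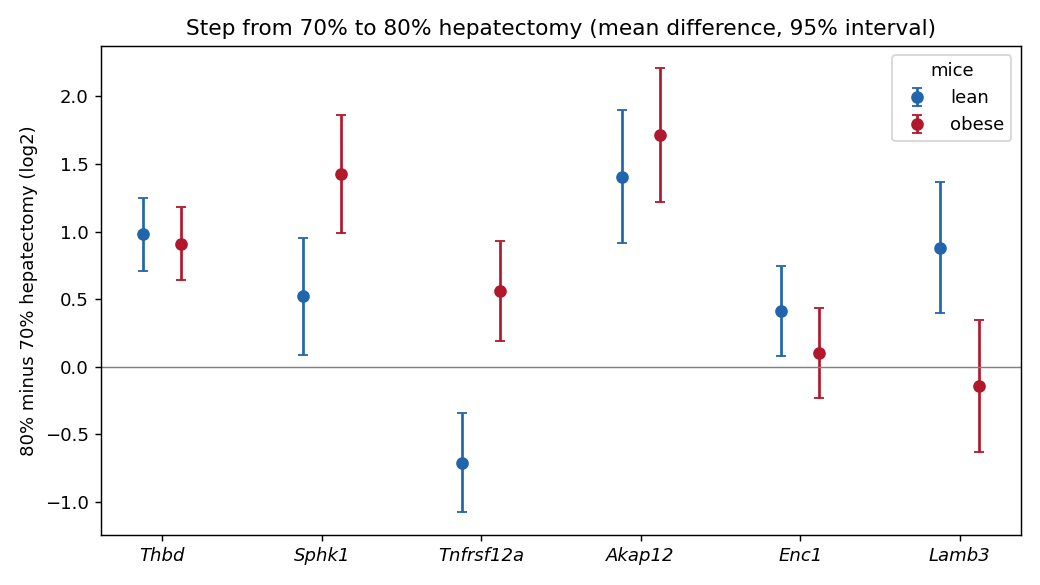
Difference between 80% and 70% hepatectomy for each gene (log2, vertical axis) in lean and obese mice, with points for the fitted difference of 4 against 4 arrays and bars for its 95% interval. Tnfrsf12a is the gene whose step is downward in lean mice (-0.71) and upward in obese mice (0.56).

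The size of the step was compared between diets directly. The obese step minus the lean step was 1.27 for Tnfrsf12a (SE 0.25, limma adjusted p = 0.00254), 0.91 for Sphk1 (SE 0.29, limma adjusted p = 0.0441) and -1.02 for Lamb3 (SE 0.33, limma adjusted p = 0.0428). These 3 of 6 genes passed where 12.4% of all genes did, 6.97% higher and 5.4% lower. With the replicate number as a block only Tnfrsf12a passed, the adjusted p being 0.0529 for Sphk1 and 0.053 for Lamb3. The Sphk1 and Lamb3 calls were each lost without any of 11 single arrays among the 16 of these groups. The step did not pass the test of a diet difference for Thbd (-0.071, limma adjusted p = 0.839), Akap12 (0.31, limma adjusted p = 0.576) or Enc1 (-0.31, limma adjusted p = 0.377). Slide and group cannot be told apart in this comparison.

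Without resection, the diets already differed for 3 genes. In sham livers Lamb3 was 3.05-fold higher in obese mice (log2 1.61, limma adjusted p = 4.62e-05), Enc1 was higher by 0.94 (limma adjusted p = 0.000219), with 2 of 4 lean arrays below detection, and Thbd was higher by 0.47 (limma adjusted p = 0.0164). These were 3 of 6 genes where 12.2% of all genes passed, 6.1% higher and 6.09% lower. The diets did not overlap for Lamb3, Enc1, Thbd and Sphk1, nor for 9.59% of all genes in that direction. Sphk1 differed by 0.33 (limma adjusted p = 0.35), with lean sham below detection, Tnfrsf12a by 0.12 (limma adjusted p = 0.75) and Akap12 by -0.10 (limma adjusted p = 0.846). On slide 1, which held 2 obese and 4 lean sham arrays, the differences were 1.62 for Lamb3, 0.81 for Enc1 and 0.51 for Thbd. Under other processing of all arrays the sham difference ran from 0.97 to 1.63 for Lamb3 and from 0.44 to 0.94 for Enc1. Thbd did not pass with slide as a term (adjusted p = 0.069), without background correction (0.28 log2 units, adjusted p = 0.0969), without lean sham replicate 4 (adjusted p = 0.0636) or without obese sham replicate 3 (adjusted p = 0.0554).

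After 70% hepatectomy the diets differed for 2 genes, both lower in obese mice, where 30.6% of all genes passed, 16.9% higher and 13.7% lower. Lamb3 differed by -1.11 log2 units (limma adjusted p = 0.000939) with no overlap, and Enc1 by -0.71 (limma adjusted p = 0.00151) with overlapping ranges. Of 5 tested macrophage markers, 4 were also lower in obese mice at 70%, with a summed level of 1500 to 1930 against 1470 to 4200 in lean mice, and their part in these values was not tested. Thbd, Sphk1, Tnfrsf12a and Akap12 differed by -0.039, -0.011, -0.068 and -0.12, with limma adjusted p = 0.848, 0.973, 0.803 and 0.733.

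After 80% hepatectomy 4 genes differed between diets, 2 each way, where 22.9% of all genes passed, 13.5% higher and 9.46% lower. Tnfrsf12a was 2.30-fold higher in obese mice (log2 1.20, limma adjusted p = 5.4e-05) and Sphk1 was higher by 0.89 (limma adjusted p = 0.00333) with overlapping ranges. Lamb3 was 4.38-fold lower (log2 -2.13, limma adjusted p = 1.99e-06) and Enc1 2.03-fold lower (log2 -1.02, limma adjusted p = 9.62e-05). Thbd and Akap12 differed by -0.11 and 0.19 (limma adjusted p = 0.589 and 0.617). On slide 4, with 4 obese and 2 lean arrays, the differences were 1.20 for Tnfrsf12a, 1.25 for Sphk1, -1.63 for Lamb3 and -0.93 for Enc1, each without overlap. The summed level of neutrophil markers was higher after each resection than after sham surgery. It ran from 3310 to 5230 in obese and 996 to 2680 in lean mice at 80%. At 70% it ran from 1130 to 3450 in lean and 1040 to 1900 in obese mice. In sham liver it was 147 to 234 in lean and 130 to 156 in obese mice. S100a8 and S100a9 carry the sum, with log2 levels of 11.35 and 10.31 in obese 80% livers. Csf3r, Cxcr2 and Mmp9 lay there at 6.04, 5.27 and 5.29. Of the 6 neutrophil markers 5 were tested and Ly6g was not, and 2 were higher in obese mice at 80%. Their part in the Sphk1 and Tnfrsf12a values was not tested.

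**Figure D3:**
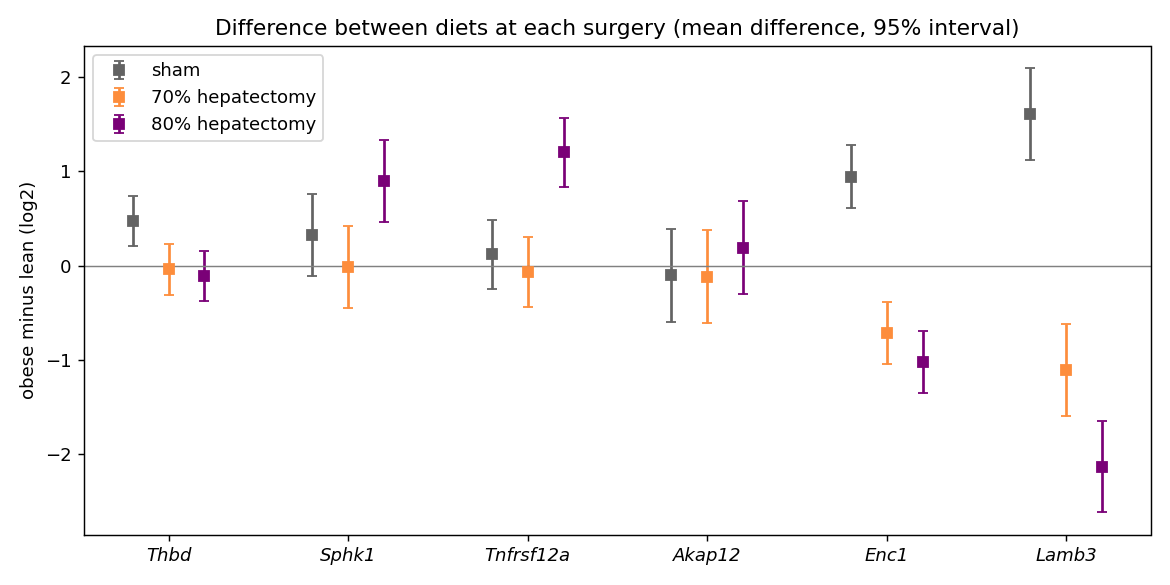
Obese minus lean difference for each gene (log2, vertical axis) after sham surgery, 70% and 80% hepatectomy, with points for the fitted difference of 4 against 4 arrays and bars for its 95% interval. Lamb3 goes from 1.61 after sham surgery to -1.11 and -2.13 after resection, and Enc1 from 0.94 to -0.71 and -1.02.

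The response to resection also differed between diets when each group was set against its own sham. For Lamb3 the obese response minus the lean one was -2.72 log2 units at 70% (SE 0.33, limma adjusted p = 1.54e-05) and -3.74 at 80% (limma adjusted p = 2.46e-07). Under other processing of all arrays the Lamb3 values ran from -2.83 to -1.76 at 70% and from -3.90 to -2.59 at 80%. For Enc1 the obese response minus the lean one was -1.66 (SE 0.22, limma adjusted p = 3.79e-05) and -1.97 (limma adjusted p = 9.87e-06), values that depend on background, since Enc1 was near it in lean sham liver. Of the markers of bile duct epithelium, a cell type with basement membranes, 3 of 6 were tested. Their summed level ran from 331 to 487 in lean sham, 675 to 3070 in lean 80%, 339 to 504 in obese sham and 1930 to 3510 in obese 80% livers, and 1 of 3 rose in each diet at 80%. That was Sox9, which carries the sum, with log2 levels of 8.54 and 10.44 in lean and 8.36 and 11.27 in obese mice after sham surgery and 80%, while Krt7 lay between 4.73 and 5.12 and Cldn7 between 4.93 and 5.24 in all groups and Krt19, Epcam and Spp1 were not tested. Their part in the Lamb3 values was not tested. Lamb3 and Enc1 were the 2 of 6 genes that passed at 70%, where 18.1% of all genes did, 9.82% higher and 8.31% lower in obese mice. Slide and group cannot be told apart in this comparison at 70%. At 80%, 4 of 6 passed against 11% of all genes, 6.51% higher and 4.52% lower, the others being Tnfrsf12a, at 1.08 (SE 0.25, limma adjusted p = 0.00638), and Thbd, at -0.58 (SE 0.18, limma adjusted p = 0.0397). With slide as a term Tnfrsf12a did not pass (1.05, adjusted p = 0.068). The Thbd call was lost under most alternatives, with adjusted p = 0.0521 with the replicate block and 0.0911 with slide as a term, and without any of 10 of the 16 arrays.

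The change at 70% did not pass the test of a diet difference for Thbd (-0.51, limma adjusted p = 0.0519), Sphk1 (-0.34, limma adjusted p = 0.446), Tnfrsf12a (-0.19, limma adjusted p = 0.645) or Akap12 (-0.015, limma adjusted p = 0.981). The Thbd difference passed with the stricter detection filter (adjusted p = 0.048), with array weights (adjusted p = 0.0261) and without lean sham replicate 2, lean 70% replicate 4, obese 70% replicate 1 or obese 70% replicate 4 (adjusted p = 0.0396 to 0.0476). At 80% the test was not passed for Sphk1 (0.57, limma adjusted p = 0.228) or Akap12 (0.29, limma adjusted p = 0.637). Sphk1 values against lean sham lie on an undetected group.

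Genes with the most similar course over the 24 arrays were named by the smallest root mean square difference of centred log2 values. Nearest to Thbd were Sphk1 at 0.426, Ch25h at 0.475 and Tubb6 at 0.492, where the median over all genes was 2.10. Nearest to Sphk1 were Thbd, Plscr1 at 0.441 and Ch25h at 0.461, and nearest to Tnfrsf12a were Ccdc120 at 0.387, Tubb6 at 0.429 and Sphk1 at 0.516. For Akap12 they were Atf3 at 0.49, Plscr1 at 0.493 and Itpkc at 0.528, and for Enc1 Wdr92 at 0.429, Slc25a30 at 0.504 and Thbd at 0.535. For Lamb3 the nearest was Kiss1 at 0.404, followed by Lgals4 at 0.52 and Sh2b1 at 0.575, against a median of 1.06. These medians lie close to the gene's own root mean square about its mean, 2.07 for Thbd and 1 for Lamb3. A gene that hardly changes is about that far away. The genes were picked for their rise after resection, which weighs in this distance, so nothing is read from their lying near each other. Within groups, the deviations of Sphk1 and Akap12 from their group means went together over the 24 arrays (Pearson 0.836, Spearman 0.765), arrays that share slides and hybridisation. Enc1 and Lamb3 followed at r 0.601 and Akap12 with Lamb3 at 0.512, and the lowest Pearson value was -0.188 for Tnfrsf12a with Enc1 (Spearman 0.018). By Spearman the lowest was Thbd with Enc1 at -0.263.

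Partners of each gene were then followed as lists of known genes, in which hepatectomy against sham was tested. The lists were chosen with earlier results of these data known, so their counts and p-values are not wholly independent of that choice. Genes named for size were taken as the called genes with the largest differences at 80%, so nothing is read from their being called. All genes gave 47.6% and 55% called in lean mice at 70% and 80% and 46.8% and 52.8% in obese mice, with 21.4%, 23.9%, 22.2% and 24.1% called higher and 26.2%, 31%, 24.6% and 28.7% called lower, in the same order.

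Among 19 tested genes of the protein C and fibrinolysis system, 8 rose and 3 fell in lean mice at 70%, 7 and 5 at 80%, 5 and 5 in obese mice at 70% and 5 and 6 at 80%. Their median log2 differences were between 0.024 and 0.12, against -0.058 to -0.021 for all genes. Klf2, a transcription factor known to drive Thbd in endothelium, rose by 1.92 in lean (SE 0.15, limma adjusted p = 2.99e-10) and 1.54 in obese mice at 80% (limma adjusted p = 1.24e-08), with a further step from 70% to 80% in lean mice (0.63, limma adjusted p = 0.00752). Klf4, a related factor, was undetected in lean sham liver and at least 3.11-fold higher at 80%. The urokinase receptor Plaur was at least 2.67-fold higher in lean mice and the plasminogen activator Plat at least 1.94-fold in lean and 3.25-fold in obese mice at 80%. Of the partners closest to thrombomodulin, the protein C receptor Procr differed by 0.017 in lean (limma adjusted p = 0.919) and 0.36 in obese mice (limma adjusted p = 0.0179) at 80%. Procr was near background, detected on 2 lean sham, 3 lean 80%, 2 obese sham and 4 obese 80% arrays. Its values depend on background and do not show that the receptor was unchanged in lean mice. Protein C itself (Proc) differed by -0.11 in lean (limma adjusted p = 0.24) and -0.35 in obese mice (limma adjusted p = 0.000802). The thrombin receptor F2r fell by 0.65 in lean mice (limma adjusted p = 0.000239) and differed by 0.10 in obese mice (limma adjusted p = 0.554).

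Endothelial markers stood beside Thbd as follows. Their summed level ran from 5700 to 6610 in lean sham, 5650 to 7790 in lean 70% and 6220 to 6430 in lean 80% livers, and from 6870 to 7580, 6330 to 7480 and 5830 to 7610 in the obese groups. Of 11 tested, 5 rose and 3 fell in lean mice at 70%, 4 and 3 at 80%, 4 and 2 in obese mice at 70% and 5 and 6 at 80%. Clec4g is the brightest of them and weighs most in the sum, with log2 levels of 11.76, 11.65 and 11.28 in lean and 11.88, 11.49 and 11.02 in obese mice after sham surgery, 70% and 80%. The mean levels of Lyve1, Cdh5, Pecam1, Stab1 and Egfl7 were higher after each resection than after sham surgery in both diets. Those of Clec4g, Fcgr2b, Oit3 and Tek were lower, and those of Stab2 and Ptprb were higher in lean and lower in obese mice. Fcgr2b had levels of 8.21, 7.67 and 7.56 in lean and 8.575, 7.683 and 7.477 in obese mice. Oit3 had 7.73, 7.28 and 7.12 and 8.20, 7.97 and 7.53, and Tek 7.25, 6.81 and 7.10 and 7.435, 7.226 and 6.696. Egfl7 had 9.50, 9.54 and 9.71 and 9.56, 9.725 and 9.90. Lyve1 had levels of 6.74, 9.29 and 9.72 in lean and 7.75, 9.79 and 10.41 in obese mice, Cdh5 of 6.56, 7.07 and 7.75 and of 6.54, 7.35 and 7.96, Pecam1 of 5.81, 6.50 and 6.83 and of 6.03, 6.88 and 6.93, and Stab1 of 6.94, 7.70 and 7.49 and of 6.97, 7.96 and 7.75. The part of endothelial cells in the Thbd values was not tested.

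Of 24 tested genes of sphingosine and ceramide metabolism, 6 rose and 8 fell in lean mice at 70%, 8 and 12 at 80%, 8 and 8 in obese mice at 70% and 8 and 10 at 80%. The list's medians were 0.043, -0.33, 0.040 and 0.044, against -0.032, -0.058, -0.021 and -0.038 for all genes. Sphk2, the second sphingosine kinase, fell by 1.24 in lean (SE 0.12, limma adjusted p = 5.36e-09) and by 1.29 in obese mice at 80% (limma adjusted p = 3.4e-09), the sign opposite to that of Sphk1. Sgpl1, the lyase that breaks sphingosine 1-phosphate down, fell by 0.82 in lean (limma adjusted p = 4.59e-05) and by 0.39 in obese mice (limma adjusted p = 0.0303). Among the genes named for the size of their difference, Acer2, a ceramidase, rose by 1.68 and 1.47 and Ugcg, which makes glucosylceramide, by 1.73 and 2.79 at 80%. The ceramide synthase Cers6, undetected in both sham groups, was at least 2.08-fold and 3.43-fold higher. The receptor S1pr2 differed by 0.28 in lean (limma adjusted p = 0.26) and 0.47 in obese mice (limma adjusted p = 0.0613), and S1pr1 was detected on 0 arrays.

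Of 18 tested genes of TWEAK and TRAF signalling, 7 rose and 5 fell in lean mice at 70%, 7 and 3 at 80%, 8 and 2 in obese mice at 70% and 8 and 0 at 80%. Medians were 0.17 to 0.26. Tnfsf12, the ligand TWEAK, was detected on 0 arrays, and the adaptor Traf2 differed by -0.13 and -0.15 at 80% (limma adjusted p = 0.307 and 0.274). Traf2 was near background, detected on 3 lean sham, 1 lean 80%, 2 obese sham and 1 obese 80% arrays. These values therefore do not show whether Traf2 changed. In lean mice at 70% Traf2 differed by -0.48 (limma adjusted p = 0.000726), with 0 arrays detecting it at 70%, so that size depends on background. Map3k14, the kinase of the non-canonical NF-kB branch, rose by 1.35 in lean (SE 0.15, limma adjusted p = 5.29e-08) and 1.53 in obese mice (limma adjusted p = 8.39e-09), and Tnfaip3, which restrains NF-kB, by 1.27 and 1.75. Map3k14 was seen on 2 of 4 and Tnfaip3 on 1 of 4 lean sham arrays, so their lean sizes depend on background.

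Of 18 tested receptors of the TNF receptor family, Tnfrsf12a not counted, 9 rose and 2 fell in lean mice at 70%, 9 and 4 at 80%, 10 and 3 in obese mice at each resection. Medians were 0.35 to 0.50. Tnfrsf1a, a receptor of TNF itself, rose by 1.44 (SE 0.11, limma adjusted p = 7.77e-11) and 1.33 (limma adjusted p = 3.67e-10) at 80%, and Tnfrsf1b by 1.58 and 1.20. Tnfrsf8 rose by 1.23 and 1.67, and Tnfrsf22, a decoy receptor, was at least 2.04-fold higher in lean mice and rose by 1.74 in obese mice. Tnfrsf22 also stepped up from 70% to 80%, by 0.93 in lean (limma adjusted p = 0.000466) and 0.92 in obese mice (limma adjusted p = 0.00169), unlike the lean direction of Tnfrsf12a.

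Of 19 tested genes of the A-kinase anchoring list, 6 rose and 4 fell in lean mice at 70%, 5 and 5 at 80%, 3 and 6 in obese mice at 70% and 6 and 6 at 80%, with medians of -0.062 to 0.074. Akap2 rose by 1.36 in both diets at 80% (SE 0.12, limma adjusted p = 1.72e-09 in lean and 2.19e-09 in obese mice), and Akap13, another anchor, by 1.02 in lean mice (limma adjusted p = 2.68e-06), with 0.24 in obese mice (limma adjusted p = 0.18). The mitochondrial anchor Akap1 fell by 0.94 and 1.28, and Prkaca, the catalytic subunit of protein kinase A, by 0.82 and 1.05. The regulatory subunit Prkar2a differed by -0.17 in lean mice (limma adjusted p = 0.211) and fell by 0.46 in obese mice (limma adjusted p = 0.00124).

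Of 22 tested kelch and cullin 3 genes, 4 rose and 8 fell in lean mice at 70%, 6 and 6 at 80%, 3 and 7 in obese mice at 70% and 3 and 8 at 80%, with medians of -0.094 to 0.085. The kelch proteins named by size all fell or did not pass: Kbtbd4 fell by 1.30 in lean (SE 0.14, limma adjusted p = 6.49e-08) and 0.63 in obese mice (limma adjusted p = 0.000784), Klhl22 by 1.09 and 0.59 and Ipp by 0.68 and 0.89. Klhl25 fell by 1.03 in obese mice (limma adjusted p = 5.95e-06) and differed by -0.085 in lean mice (limma adjusted p = 0.67). Keap1, the kelch sensor of oxidative stress, fell by 0.56 in lean mice (limma adjusted p = 6.65e-05) and differed by -0.023 in obese mice (limma adjusted p = 0.866). The ligase scaffold Cul3 differed by -0.11 and 0.11 (limma adjusted p = 0.319 and 0.311).

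Of 20 tested laminins, laminin receptors and basement membrane genes, 7 rose and 1 fell in lean mice at 70%, 10 and 3 at 80%, 6 and 3 in obese mice at 70% and 9 and 3 at 80%, with medians of 0.11 to 0.28. Col4a1, a chain of type IV collagen, rose by 2.93 in lean (SE 0.15, limma adjusted p = 1.08e-13) and by 2.90 in obese mice (limma adjusted p = 1.83e-13), and the linker protein Nid1 by 1.81 and 2.26. Both rose in obese mice, where Lamb3 was lower than in sham liver. Itgb4, a subunit of the integrin that binds this laminin, was near background: it was detected on 0 lean sham and 3 lean 80% arrays, with overlapping ranges (limma adjusted p = 0.0302). Itga6 was detected on 1 array.

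**Figure D4:**
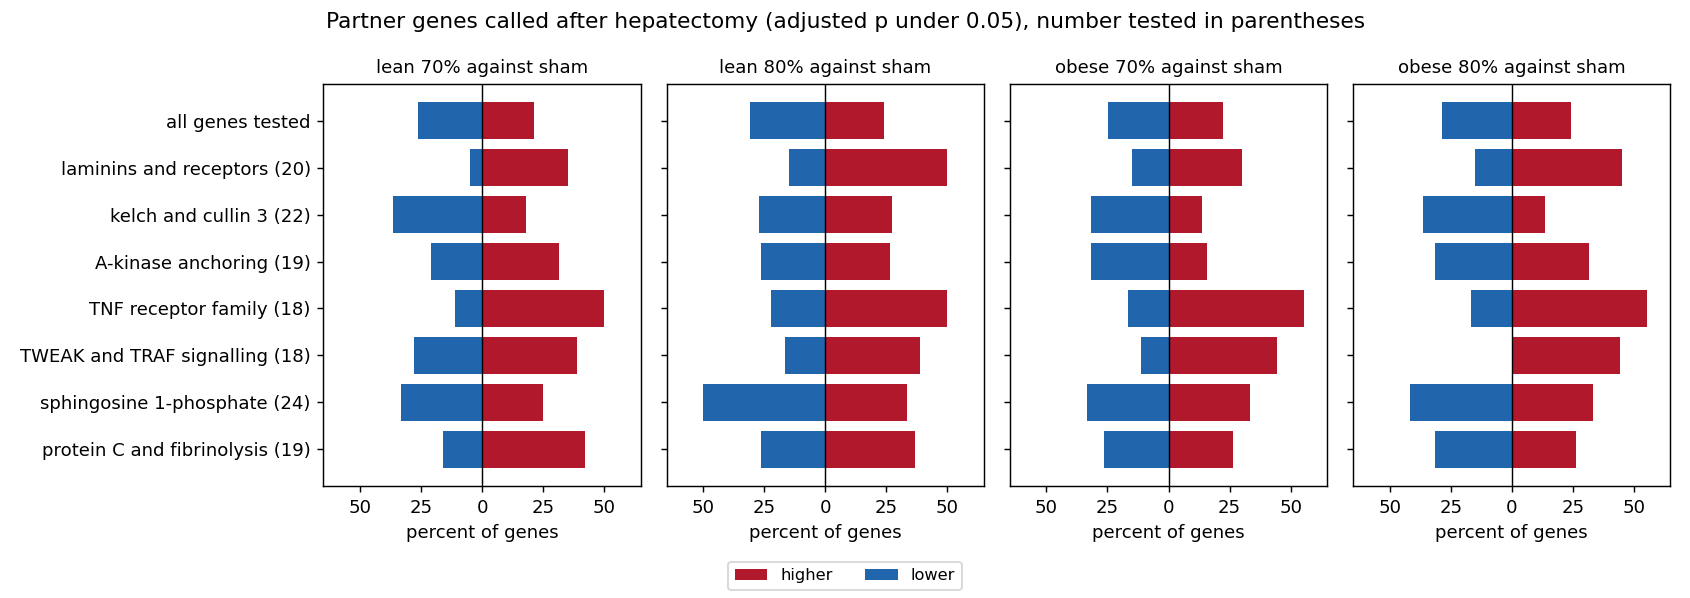
Percent of tested genes called higher (right of 0) and lower (left of 0) after hepatectomy at an adjusted p under 0.05, for all 10765 genes and for 7 partner lists, with the number tested in parentheses. The bars for higher genes are longer than those for all genes in each panel for the protein C, sphingosine, TWEAK, TNF receptor and laminin lists. The bars for lower genes are also longer than those for all genes in each panel for the sphingosine list. The same holds for the protein C and A-kinase lists in both obese panels and the TWEAK list at 70% in lean mice. It holds for the kelch list in every panel but that of lean mice at 80%. In obese mice 5 of 19 protein C genes were higher at each resection, close to the 22.2% and 24.1% of all genes.

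From 70% to 80%, 16.6% of all genes were called in lean and 7.86% in obese mice. In the lists the calls in lean mice were 2 higher and 1 lower in the protein C list, 1 and 4 in the sphingosine list, 2 and 1 in the TWEAK list, 3 and 2 among the TNF receptors, 1 and 2 in the A-kinase list, 1 and 2 among the kelch genes and 0 and 2 among the laminins. In obese mice they were 3 and 0, 2 and 1, 1 and 0, 1 and 1, 1 and 1, 0 and 2, and 5 and 1 in the same order, the last being among the 20 tested laminins and receptors. Nid1 fell by 0.53 in lean mice (limma adjusted p = 0.0237) and rose by 0.55 in obese mice (limma adjusted p = 0.035), and Prkaca fell by 0.52 in lean mice (limma adjusted p = 0.00168).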

How the data were processed

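Liver RNA of 24 samples was hybridised as biotin-labelled cRNA to Illumina arrays, per the labels' protocols. The deposited table holds an intensity per probe and array that was not normalised between arrays, and a deposited detection score, a fraction rising from 0 to 1 with brightness, which was subtracted from 1 to give the detection p. The authors' series matrix of log2 values was recomputed from the intensities by quantile normalisation and centring on each probe's median, with a largest difference of 0.00957. No source used here gives the scanner.

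Intensities were background-corrected by normexp from the detection p (offset 16), quantile normalised and taken to log2 in limma 3.58.1 (R 4.3.3). Probes with a detection p under 0.05 on at least 4 arrays were kept, 19631 in all. Probes were named from GEO's platform table; 34885 had 1 gene, 18 several and 10378 none. Of 19057 genes, 10765 were tested, each by its brightest probe. One limma fit of the 24 arrays, with 18 residual degrees of freedom, gave 12 comparisons; tests were two-sided, adjusted by Benjamini and Hochberg over all genes, and called under 0.05. With 4 arrays a group, their number limits the precision. The fit was tested on simulated data.

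A gene undetected in the lower group is given as at least the fold over the detection floor (4.73 to 4.92, log2). Named partners are, per list, the called genes with the largest differences and the direct partners of a gene, 34 in all. Members and lists were chosen with earlier results of these data known. Same-numbered arrays did not deviate together (60 pairs, r -0.208 to 0.183), so the numbers do not pair them.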

Additional observations from a re-analysis of the deposited data

Results flagged for a closer look

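Several of these values rest on a sample that stood apart from the other 3 of its group. The gap to the nearest array, as a share of the group's range, was 0.942 for Thbd in lean 70% replicate 2, which was high, 0.841 for Thbd in lean 80% replicate 3, high, 0.919 for Tnfrsf12a in obese 80% replicate 2, low, and 0.837 for Enc1 in obese sham replicate 3, high. Among the partner genes the share was 0.911 for Acer2 in lean 80% replicate 4, low, 0.857 for Klf4 in obese 70% replicate 2, low, 0.847 for Tnfrsf1a in lean sham replicate 3, high, 0.915 for Tnfrsf8 in lean 70% replicate 4, low, and 0.915 for Cul3 in obese 80% replicate 4, high. Obese 80% replicate 2 was also low for Akap2 (0.853) and Ugcg (0.909). Chance alone marks about 1 in 20 groups in this way.

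Other values differed between the diets by a test of the difference itself, in limma with adjustment over all genes. For the genes described here the obese minus lean response was -2.72 at 70% and -3.74 at 80% for Lamb3, -1.66 and -1.97 for Enc1, 1.08 at 80% for Tnfrsf12a and -0.58 at 80% for Thbd. The obese minus lean step from 70% to 80% was 1.27 for Tnfrsf12a, 0.91 for Sphk1 and -1.02 for Lamb3.

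Among the partner genes, the response at 70% differed by -0.67 for Klf4, -1.26 for Plat, -0.71 for Prkaca, -0.64 for Prkar2a, 0.68 for Kbtbd4 and 0.55 for Traf2. At 80% it differed by -0.70 for Klf4, -0.78 for Akap13, -0.95 for Klhl25, 0.75 for F2r, 0.67 for Kbtbd4, 0.54 for Keap1 and 1.06 for Ugcg. The step from 70% to 80% differed by 0.88 for Klhl22, 1.08 for Nid1, 1.86 for Plat, 0.83 for Plaur, 0.47 for Prkaca, 0.80 for Sgpl1 and -0.56 for Traf2. Klf4 and Plat were not detected in lean sham liver and Traf2 on no lean 70% array, so the values of Klf4, Plat and Traf2 that use those groups depend on background and are no exact sizes.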

How the results depend on the processing

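Counts of all genes called moved with the slide and with array weights. With slide as a fixed term they were 2496 for lean 70% against sham (5126 without it), 594 for diet at sham (1313), 1323 for diet at 80% (2469) and 398 for the diet difference in response at 80% (1188). With slide as a random block they were 799 for lean 80% against 70% (1789), 275 for the obese step (846), 2051 for diet at 70% (3293), 853 for the diet difference in response at 70% (1952) and 376 for that in the step (1331). Array weights gave 2156 for the obese step, 1857 for the diet difference at 80% and 2362 for that in the step, and the 2 groups alone gave 386 for the lean step. Leaving out single arrays gave 1132 to 2407 for the lean step, 308 to 1088 for the obese step and 829 to 1206 for diet at sham, the lowest without lean 70% replicate 3 and obese sham replicate 3 for the first and the last. Of the 6 genes, 2 instead of 4 passed the diet difference at 80% with slide fixed, and 1 instead of 3 passed that in the step with no filter on dim probes, slide as a random block, the replicate block or only the 4 groups, and 1 to 3 without single arrays. The replicate block also moved the obese step of Tnfrsf12a past the threshold (adjusted p = 0.0284), ended the Thbd call in the diet difference at 80% (adjusted p = 0.0521), and changed no other call of the 6 genes than these and those of Sphk1 and Lamb3 given with the step.

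Some values changed sign. Dim probes gave, for Sphk1, -0.12, -0.24, -0.35 and -0.32 for lean 70%, lean 80%, obese 70% and obese 80% against sham and -0.12 for the lean step, and for Akap12 -0.094, -0.038 and -0.066 for lean 80%, obese 70% and obese 80% against sham and -0.17 and -0.029 for the lean and obese steps. The Lamb3 obese step was 0.087 and 0.87 with slide random and fixed. Differences near 0 turned under upper-quartile scaling, for diet at 70% to 0.081 for Thbd, 0.10 for Sphk1 and 0.030 for Tnfrsf12a, and to 0.095 for the Akap12 diet difference at 70%, and with array weights to 0.049 for Thbd in the step. Without single arrays, diet at 70% ran from -0.099 to 0.067 for Thbd, -0.24 to 0.13 for Sphk1, -0.22 to 0.11 for Tnfrsf12a and -0.40 to 0.12 for Akap12, the Akap12 diet difference at 70% from -0.29 to 0.23 and the Thbd difference in the step from -0.18 to 0.031. Upper-quartile scaling moved the share of genes higher from 54.85% to 35.84% for the obese step, from 54.15% to 66.06% for the diet difference at 70% and from 56.35% to 35.59% for that in the step. Signal near background limits Sphk1 and Enc1 in lean sham liver. The cause of these changes was not tested.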
